A study of Mus musculus with 6 samples.

Results

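The genes described here are 34 smooth muscle genes of the contractile apparatus and the cytoskeleton that anchors it, chosen as the rows of the whole-epididymis count table whose gene symbol is in a list of such genes. All 34 were found among the 57127 genes listed, all had counts, and all were among the 19691 genes that passed the filter on low counts, of 32046 with at least 1 count. The libraries were made from whole epididymis of adult C57BL/6 mice, 3 from wild-type (WT) animals and 3 from animals without occludin, a tight junction protein (Ocln-/-, called Ocln-KO). The Ocln-KO mice came from heterozygous parents, and the sources used here name no Cre, transgene or agent for either genotype. The methods speak both of RNA taken separately from 3 pairs of mice and of pooled RNA, so n counts libraries, whether a library is 1 mouse is not stated, and p-values measure a spread between libraries that may be technical.

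The epididymal duct is wrapped in smooth muscle that thickens toward the tail and moves sperm along the tube, and smooth muscle also lines the vessels. In these cells calcium entry activates myosin light chain kinase, phosphorylated myosin pulls on actin filaments, and myosin phosphatase reverses the step. The filaments are tethered to dense bodies inside the cell and to adhesion plaques at its surface. Many of the genes are driven by serum response factor (SRF) with its coactivator myocardin, through an A/T-rich element called the CArG box.

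The libraries held between 30646424 and 38870780 counts, and after scaling 1 count was worth 0.0267 to 0.0314 CPM, the unit of counts scaled to a common library size that is used throughout. Ocln had 78.8 to 91.8 CPM in WT against 14.9 to 15.3 in Ocln-KO (log2 fold change -2.50, SE 0.09, adjusted p = 0.000108 in edgeR's quasi-likelihood fit, Benjamini-Hochberg method), in the direction of the labels. On the first principal component, with 47.2% of the variance, Ocln-KO replicate 3 stood at 86.3 while the other Ocln-KO libraries stood at 17.7 and 29.1 and the WT libraries between -52.8 and -37. Of 8 markers of the proximal epididymis, Lcn9, Rnase10, Adam28 and Cst11 were too low to test, and Gpx5, a secreted glutathione peroxidase of the caput, had 54.5, 172 and 26.3 CPM in WT against 256, 7260 and 10000 CPM in Ocln-KO. Ocln-KO replicates 2 and 3 stood far above every other library in Gpx5. The extraction text in the sample labels names prefrontal cortex, while the tissue label and the methods name epididymis.

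Of the 34 genes, 7 were higher in Ocln-KO and 0 lower at an adjusted p under 0.05 in edgeR's quasi-likelihood test. They were Actg2, Tpm2, Cald1, Myh11, Mylk, Synpo2 and Ldb3, with log2 fold changes of 0.46 to 1.27 and adjusted p-values of 0.0256 to 0.0489. Over all genes tested, 3.91% were called higher and 5.04% lower. A fold change above 2 in addition left Ldb3 and Actg2, beside 1.49% of all genes higher and 1.7% lower by more than that. At an unadjusted p under 0.05 there were 18 genes, every one of them with a higher mean in Ocln-KO, beside 29.1% of all genes tested in either direction and 13.9% higher, and DESeq2 and limma-voom also called 0 of the genes lower. Calls were lost when single libraries were left out, over all genes as well as in this list: 0 of the genes were called without WT replicate 1, without WT replicate 3 or without Ocln-KO replicate 2, where 9, 10 and 9 genes had an unadjusted p below 0.05, and Cald1 alone was called without WT replicate 2. Over all genes those fits called 4, 16, 220 and 85 higher in place of 770. Without Ocln-KO replicate 1 the count was 10, and without Ocln-KO replicate 3 it was 6, and in the 6 fits the log2 fold changes of the 7 genes lay between 0.44 and 1.42.

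The log2 fold change was above 0 for 28 of the genes, or 82.4%, beside 50.9% of all genes tested, and its median was 0.27 beside 0.01. In 14 of the genes each Ocln-KO library lay above each WT library and in 0 each lay below, beside 16.9% and 19.4% of all genes. In this bulk tissue more smooth muscle cells and more transcript per cell cannot be told apart.

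**Figure D1:**
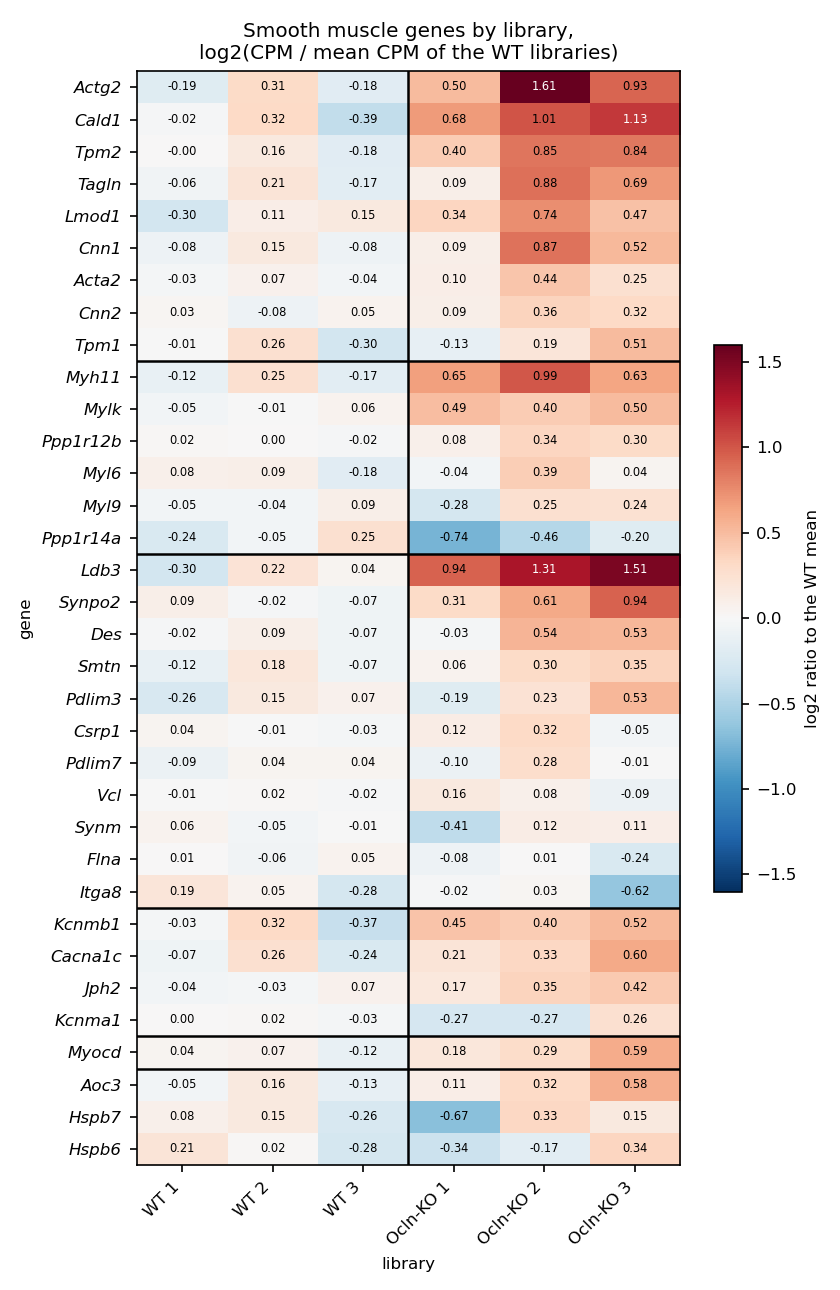
Each row is a smooth muscle gene, grouped by role, and each column a library, and the colour gives the log2 ratio of its CPM to the mean of the WT libraries. Higher values fill the Ocln-KO columns for most thin filament genes, and Ocln-KO replicate 1 is the palest of the 3, with a median of 0.09 against 0.34 and 0.45.

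The promoter windows of the genes are given here because the CArG box is the sequence these genes are best known to share. RefSeq promoter windows of GRCm38.p6, running from 250 bases before to 50 after a transcription start, were at hand for 29 of the genes and not for Actg2, Myh11, Tagln, Myocd and Aoc3. A CArG box, searched on both strands, lay in a window of 5 of the 29 (17.2%), beside 488 of all 27025 genes with a window (1.81%). A near match, with 1 substitution in the A/T core, lay in a window of 7 of the 29 (24.1%) and of 2620 of all genes (9.69%), and Myl9 held both kinds. The exact matches and the first of 2 near matches of Acta2, the best known of the smooth muscle genes, are printed 5′ to 3′ on the strand of the gene, with the element in capitals.
Ldb3: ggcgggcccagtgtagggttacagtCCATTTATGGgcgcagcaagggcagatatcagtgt
Myl9: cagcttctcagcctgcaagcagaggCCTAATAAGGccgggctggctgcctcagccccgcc
Cnn2: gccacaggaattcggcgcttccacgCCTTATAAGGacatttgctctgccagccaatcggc
Myl6: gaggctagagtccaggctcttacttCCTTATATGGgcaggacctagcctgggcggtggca
Vcl: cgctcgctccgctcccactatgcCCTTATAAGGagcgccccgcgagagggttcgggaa
Acta2: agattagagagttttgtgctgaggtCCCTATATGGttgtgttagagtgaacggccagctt

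The Ldb3 sequence lies at chr14:34588682-34588741 on the minus strand, with the element at -35 to -26 from a transcript start, or -109 to -100 from a second start. Those of Myl9 (chr2:156775278-156775337, plus strand, element at -161 to -152) and Cnn2 (chr10:79988519-79988578, plus strand, -56 to -47) lie before their starts too. So do those of Myl6 (chr10:128493025-128493084, minus strand, -50 to -41), Vcl (chr14:20929148-20929205, plus strand, -227 to -218) and Acta2 (chr19:34255423-34255482, minus strand, -84 to -75), whose other near match lies at -34 to -25. The windows of Ldb3 and Myl6 with these matches lie wholly inside the span of the gene, so their starts are internal ones. Of the 7 genes called higher, Ldb3 was the only gene with an exact match, among the 5 of them that have a window. A match is a run of letters, not a bound site, and a missing match says only that those letters are not in this window.

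The thin filament genes encode the actins and the proteins that lie along them. All 9 had a log2 fold change above 0, with a median of 0.53 and a range of 0.21 to 1.09, 3 were called higher, and in 6 the genotypes did not overlap. Actg2 (chr6:83512909-83536251, minus strand, GRCm38.p6 as for all positions), the enteric gamma actin, had 30.2, 42.5 and 30.4 CPM in the WT libraries and 48.6, 105 and 65.5 CPM in the Ocln-KO libraries. Every Ocln-KO library exceeded every WT library, with replicate 2 highest. The mean rose from 34.4 ± 7.04 to 73.0 ± 28.8 CPM (SD, n = 3), a log2 fold change of 1.09 (SE 0.27, edgeR adjusted p = 0.0489). Without Ocln-KO replicate 2 the log2 fold change was 0.73 (adjusted p = 0.0893, with a range of 0.00053 to 0.171 over the 13 alternative settings).

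Acta2 (chr19:34240336-34255585, minus strand), the vascular alpha actin, had 500, 532 and 494 CPM in WT against 546, 692 and 606 in Ocln-KO. The genotypes did not overlap, but the log2 fold change of 0.27 (SE 0.11) did not pass (edgeR adjusted p = 0.15). Per kilobase of exon, Acta2 was the most abundant of the 34 genes in WT, at 232 CPM, and Actg2 stood at 22.1 CPM in WT against 46.9 in Ocln-KO. The ratio of Actg2 to Acta2 was 0.0604, 0.0798 and 0.0615 in the WT libraries and 0.0890, 0.152 and 0.108 in the Ocln-KO libraries, without overlap and 1.73 times as high on average. No stretch of 100 bases in either actin's transcripts recurs in the transcripts of another gene.

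Cald1 (chr6:34598495-34775469), caldesmon, which holds back actin-activated myosin, had 102, 129 and 79.1 CPM in WT against 165, 208 and 226 in Ocln-KO. The lowest Ocln-KO library lay above the highest WT library, and the mean rose from 103 ± 25.1 to 200 ± 31.0 CPM (log2 fold change 0.95, SE 0.19, edgeR adjusted p = 0.0295). Tpm2 (chr4:43513726-43523583), beta-tropomyosin, had 48.1, 54.0 and 42.4 CPM in WT against 63.4, 86.8 and 86.1 in Ocln-KO. It rose by 0.71 on the log2 scale (SE 0.15, adjusted p = 0.0318), again without overlap. Tpm1 (chr9:67022590-67049672), alpha-tropomyosin, which these cells share with many others, had 316, 380 and 260 CPM in WT against 290, 362 and 452 in Ocln-KO. Its genotypes overlapped and its log2 fold change was 0.21 (SE 0.19, edgeR adjusted p = 0.509). Tpm2 to Tpm1 stood at 0.152, 0.142 and 0.163 in WT and 0.218, 0.240 and 0.190 in Ocln-KO.

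The calponin family members did not pass in edgeR, while DESeq2 called Tagln (adjusted p = 0.0277) and Cnn1 (adjusted p = 0.0483). Tagln (chr9:45929628-45936058), transgelin or SM22-alpha, had 112, 135 and 104 CPM in WT against 124, 214 and 188 in Ocln-KO, where replicate 1 fell within the WT range (log2 fold change 0.59, SE 0.20, edgeR adjusted p = 0.1). Of its exon length, 67.9% overlaps genes on the other strand, and the strand setting of the counting is not stated. Cnn1 (chr9:22099221-22109221), the smooth muscle calponin, had 47.9, 56.1 and 48.0 CPM in WT against 53.8, 92.4 and 72.5 in Ocln-KO (log2 fold change 0.52, SE 0.18, edgeR adjusted p = 0.11), and its replicate 1 also overlapped WT. Cnn2 (chr10:79988600-79995400), a more widely expressed calponin, had 42.5 to 46.5 CPM in WT against 47.8 to 57.7 in Ocln-KO, without overlap and without a call (log2 fold change 0.26, adjusted p = 0.136). Lmod1 (chr1:135324813-135368065), leiomodin, which starts new actin filaments, was the nearest to the threshold of the genes edgeR did not call, and DESeq2 called it (adjusted p = 0.0336). It had 16.1, 21.4 and 22.1 CPM in WT against 25.1, 33.2 and 27.6 in Ocln-KO, every Ocln-KO library above WT (log2 fold change 0.53, SE 0.16, edgeR adjusted p = 0.0762).

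**Figure D2:**
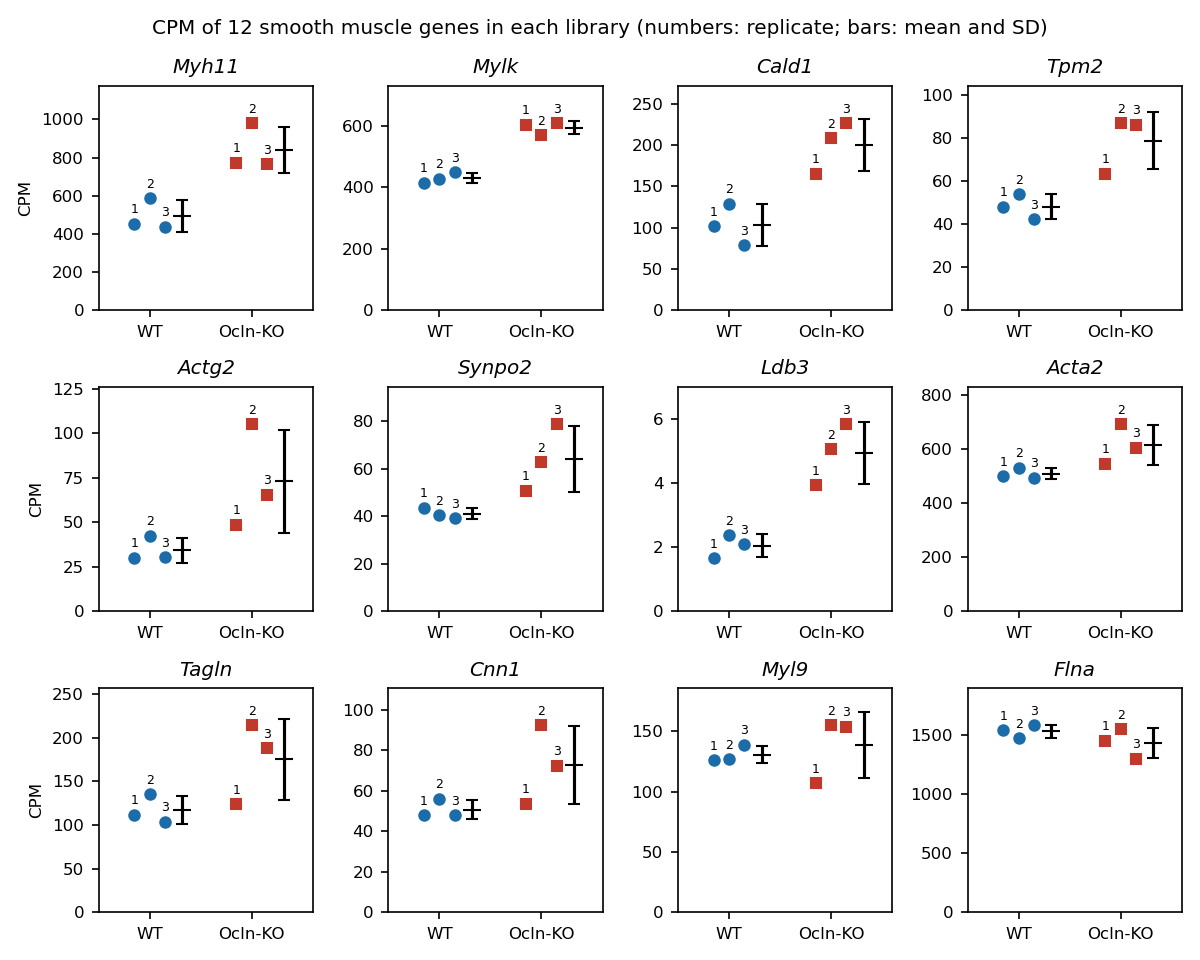
Each panel plots the CPM of a named smooth muscle gene in every library (points) with the mean and SD of each genotype (bars), on linear axes that start at 0. The 7 genes called higher show no overlap between genotypes, while Tagln, Cnn1, Myl9 and Flna do overlap.

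Of the 6 genes for myosin and its regulators, 2 were called higher, and the log2 fold changes ran from -0.45 to 0.77 with a median of 0.19. Myh11 (chr16:14194527-14292188), the smooth muscle myosin heavy chain, had 455, 588 and 439 CPM in WT against 774, 979 and 766 in Ocln-KO. All Ocln-KO libraries lay above all WT libraries, and the mean rose from 494 ± 82.0 to 840 ± 121 CPM (log2 fold change 0.77, SE 0.15, edgeR adjusted p = 0.0296). Its light chains did not pass. Myl9 (chr2:156775408-156781657), the regulatory light chain that the kinase phosphorylates, had 126, 127 and 139 CPM in WT against 107, 155 and 154 in Ocln-KO (log2 fold change 0.09, SE 0.15, edgeR adjusted p = 0.732). Ocln-KO replicate 1 was its lowest library. Myl6, the essential light chain, which non-muscle myosin also uses, had 63.0 to 75.8 CPM in WT against 69.3 to 93.3 in Ocln-KO (log2 fold change 0.14, adjusted p = 0.534), and 3.43% of its 100-base stretches recur in other genes.

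Mylk (chr16:34745199-35002436), myosin light chain kinase, had 415, 428 and 448 CPM in WT against 603, 569 and 607 in Ocln-KO. The spread within each genotype was small and the genotypes did not overlap, with means of 430 ± 16.8 and 593 ± 21.0 CPM (log2 fold change 0.46, SE 0.09, edgeR adjusted p = 0.0256). It was the smallest fold change among the 7 and had the lowest adjusted p. Among the 34 genes the opposing phosphatase is represented by regulators: Ppp1r12b, a targeting subunit, had 139 to 142 CPM in WT against 149, 178 and 174 in Ocln-KO (log2 fold change 0.25, SE 0.09, edgeR adjusted p = 0.127). Outside the 34, the targeting subunit Ppp1r12a had 363, 374 and 349 CPM in WT against 417, 434 and 497 in Ocln-KO. Its genotypes did not overlap (log2 fold change 0.31, edgeR adjusted p = 0.086). The catalytic subunit Ppp1cb was at 0.11 (edgeR adjusted p = 0.571). Ppp1r14a (chr7:29289320-29293390), the phosphatase inhibitor CPI-17, had the lowest log2 fold change of the 34 genes, with 6.58, 7.47 and 9.21 CPM in WT against 4.64, 5.62 and 6.75 in Ocln-KO. Replicate 3 of Ocln-KO overlapped WT, and the log2 fold change of -0.45 (SE 0.21) did not pass (edgeR adjusted p = 0.205).

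Of 11 ratios of a gene to a partner, 7 did not overlap between the genotypes and 4 did. Myh11 to Myl9 was 3.62, 4.64 and 3.16 in WT and 7.23, 6.32 and 4.97 in Ocln-KO. Myh11 to Acta2 was 0.910, 1.11 and 0.889 in WT and 1.42, 1.42 and 1.26 in Ocln-KO. Neither ratio overlapped between genotypes. Nor did Myh11 to Ppp1r14a, at 69.2, 78.7 and 47.7 in WT and 167, 174 and 113 in Ocln-KO. Mylk to Ppp1r12b did overlap, at 2.91, 3.04 and 3.23 in WT and 4.04, 3.19 and 3.50 in Ocln-KO. Cnn1 to Cnn2, Kcnmb1 to Kcnma1 and Cald1 to Myh11 also overlapped. The pairs were picked after their values were seen and the ratios have no test, and the smallest two-sided p that an exact permutation of 3 against 3 libraries allows is 0.1. Most numerators are genes called higher, and several ratios share Myh11, so the ratios are not independent. The share of all gene pairs without overlap was not computed, so the count of ratios has no background.

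**Figure D3:**
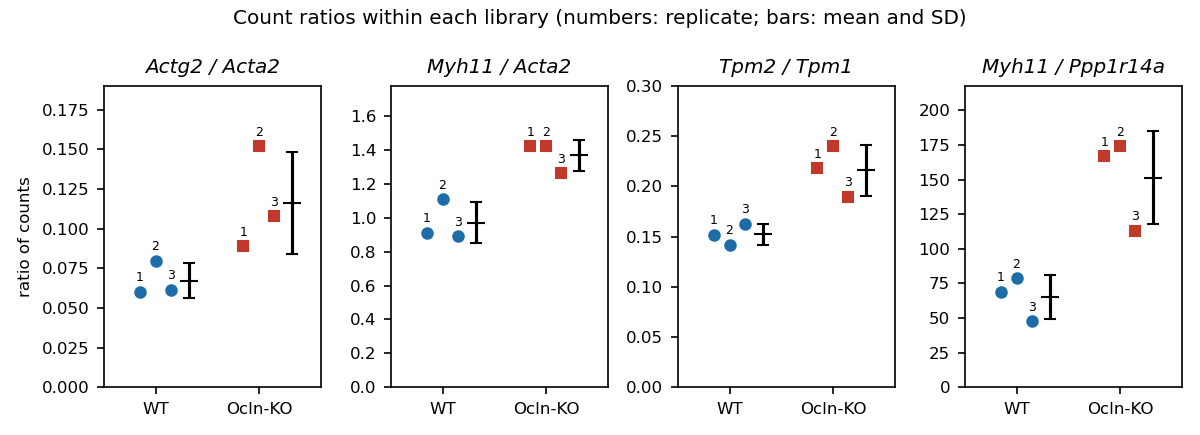
Each panel plots the ratio of the counts of a pair of smooth muscle genes in every library (numbered points), with bars for the mean and SD of each genotype on linear axes from 0. Actg2 to Acta2, Myh11 to Acta2, Tpm2 to Tpm1 and Myh11 to Ppp1r14a are higher in every Ocln-KO library than in every WT library.

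The 11 genes of dense bodies, intermediate filaments and adhesion were the most divided, with log2 fold changes of -0.17 to 1.27, a median of 0.14 and 2 called higher. Ldb3 (chr14:34526699-34590314), a PDZ and LIM protein better known from the Z-disc of striated muscle, had 1.66, 2.37 and 2.10 CPM in WT against 3.93, 5.05 and 5.83 in Ocln-KO. These levels came from 62, 81 and 78 counts against 126, 161 and 197, and the genotypes did not overlap. It had the largest fold change of the 34 (log2 1.27, SE 0.26, edgeR adjusted p = 0.0314) and, per kilobase of exon, the lowest WT level, at 0.335 CPM. Synpo2 (chr3:123076519-123236168), myopodin, an actin-bundling protein of dense bodies, had 43.6, 40.4 and 39.1 CPM in WT against 50.8, 62.7 and 78.6 in Ocln-KO. It rose by 0.64 on the log2 scale (SE 0.15, edgeR adjusted p = 0.0442), and the change without Ocln-KO replicate 3, its highest library, was 0.47 and no longer passed (adjusted p = 0.0512, with a range of 0.00434 to 0.152 over the alternative settings).

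Des and Synm, which encode the intermediate filament proteins desmin and synemin, did not pass. Des had 70.4, 75.7 and 67.8 CPM in WT against 70.1, 104 and 103 in Ocln-KO, with Ocln-KO replicate 1 at the WT level (log2 fold change 0.37, SE 0.15, edgeR adjusted p = 0.155). Synm had 106 to 115 CPM in WT against 82.7, 119 and 118 in Ocln-KO (log2 fold change -0.04, adjusted p = 0.882). The ratio of Des to Synm was nonetheless 0.615, 0.716 and 0.622 in WT and 0.848, 0.871 and 0.867 in Ocln-KO, without overlap, and both genes were lower in Ocln-KO replicate 1 than in the other Ocln-KO libraries.

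Flna (X chromosome), filamin A, an actin crosslinker made by nearly all cells, had the highest CPM of the 34 genes before division by length, with 1540, 1470 and 1580 CPM in WT against 1450, 1550 and 1300 in Ocln-KO (log2 fold change -0.10, SE 0.11, edgeR adjusted p = 0.585). Vcl, vinculin of the adhesion plaque, had 198 to 204 CPM in WT against 189 to 224 in Ocln-KO (log2 fold change 0.06, SE 0.09, adjusted p = 0.723), and 25.5% of its exon length overlaps Ap3m1 on the other strand. Itga8, an integrin subunit of smooth muscle, had 66.5, 60.2 and 48.0 CPM in WT against 57.6, 59.6 and 37.9 in Ocln-KO (log2 fold change -0.17, SE 0.19, adjusted p = 0.594). The genotypes overlapped in all 3 of these genes. They also overlapped in Smtn (smoothelin), Pdlim3 and Pdlim7 (PDZ and LIM proteins of the actin cytoskeleton) and Csrp1 (a LIM protein), whose log2 fold changes were 0.24, 0.22, 0.07 and 0.14 with edgeR adjusted p-values of 0.226, 0.508, 0.743 and 0.439. For Smtn, 16.3% of the exon length overlaps Gm11946 and Gm11947 on the other strand.

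Of the 4 genes of channels and calcium handling, 0 passed the adjusted threshold in edgeR, DESeq2 or limma-voom, and 2, Cacna1c and Jph2, were at an unadjusted p under 0.05. Cacna1c, the pore of the L-type calcium channel, had 14.9, 18.8 and 13.3 CPM in WT against 18.1, 19.6 and 23.7 in Ocln-KO (log2 fold change 0.39, SE 0.17, edgeR adjusted p = 0.168). Jph2, junctophilin, which joins the surface membrane to the calcium store, had 13.8 to 14.9 CPM in WT against 15.9 to 19.0 in Ocln-KO, without overlap (log2 fold change 0.32, SE 0.12, adjusted p = 0.133). The 2 subunits of the calcium-activated BK potassium channel differed in direction, with neither past the test. The accessory subunit Kcnmb1 had 1.63, 2.08 and 1.29 CPM in WT against 2.28, 2.20 and 2.40 in Ocln-KO (log2 fold change 0.46, SE 0.29, edgeR adjusted p = 0.339). The pore subunit Kcnma1 had 60.7, 61.5 and 59.2 CPM in WT against 50.3, 50.2 and 72.2 in Ocln-KO, with Ocln-KO libraries on both sides of WT (log2 fold change -0.07, SE 0.15, adjusted p = 0.793).

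Myocd (chr11:65173608-65269989), the coactivator myocardin, had 32.5, 33.1 and 29.0 CPM in WT against 35.8, 38.6 and 47.4 in Ocln-KO. Each Ocln-KO library was above each WT library, and the log2 fold change of 0.36 (SE 0.13) did not pass (edgeR adjusted p = 0.104). Aoc3, an amine oxidase of the smooth muscle surface, had 26 to 32 CPM in WT against 30.7 to 42.8 in Ocln-KO (log2 fold change 0.35, SE 0.14, edgeR adjusted p = 0.15). The small heat shock proteins Hspb6 and Hspb7 stood at 5.28 to 8.18 CPM in WT against 3.99 to 8.91 in Ocln-KO, with overlap in both, and their log2 fold changes were -0.03 and 0.00 (edgeR adjusted p = 0.952 and 0.999).

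**Figure D4:**
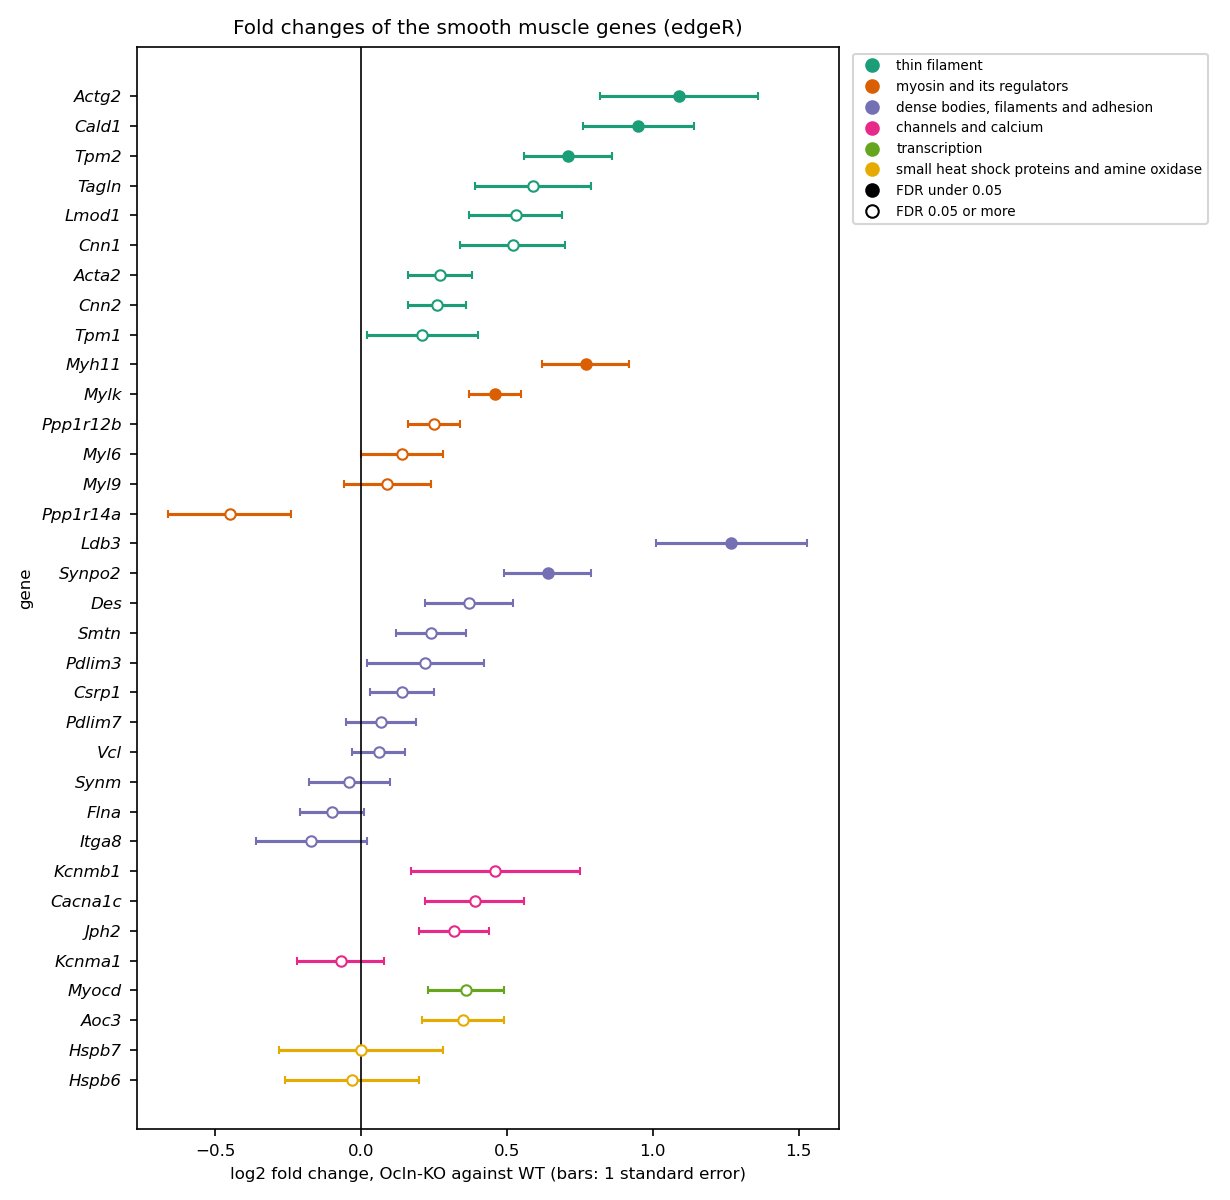
Points give the edgeR log2 fold change of each of the 34 genes, Ocln-KO against WT, with bars of 1 standard error, coloured by role; filled points have an adjusted p under 0.05. The 7 filled points run from 0.46 (Mylk) to 1.27 (Ldb3), and the 6 genes left of 0 run from -0.45 (Ppp1r14a) to -0.03 (Hspb6).

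The Ocln-KO libraries did not contribute evenly. Replicate 1 was above every WT library in 16 of the 34 genes, replicate 2 in 28 and replicate 3 in 27, beside 34.6%, 33.8% and 36.5% of all genes tested. Replicate 1 was the lowest of the Ocln-KO libraries in 26 of the 34, beside 33.1% of all genes. Each of the 7 genes called higher was above every WT library in replicate 1 as well, but replicate 1 was part of the fit that called them, so this is no separate check. Summed over the genes, the level was 4890, 5160 and 4820 CPM in WT against 5440, 6440 and 5880 in Ocln-KO. For a core of 13 more narrowly expressed genes, which holds the alpha and gamma actins, the heavy chain, calponin and transgelin, the sums were 1470, 1700 and 1450 CPM in WT against 1870, 2520 and 2160 in Ocln-KO, 1.42 times as high on average. The other 21 genes summed to 3370 to 3460 CPM in WT against 3570 to 3920 in Ocln-KO, 1.09 times as high, or 1.22 times without Flna, the most abundant of them. The core was not summed without its own most abundant gene, Myh11, whose mean went from 494 CPM in WT to 840 in Ocln-KO. Myh11 made up 588 of the 1700 CPM in WT replicate 2, and 774 of the 1870 CPM in Ocln-KO replicate 1. The separation of these libraries in the core sum therefore depends on Myh11. Of the core, 3 were called higher, Actg2, Myh11 and Synpo2, and the median log2 fold change was 0.46. Among the others 4 were called higher, Tpm2, Cald1, Mylk and Ldb3, and the median of the others was 0.21. These 4 called genes were left out of the core with the more widely expressed genes.

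Genes of the signalling that triggers contraction were described from a list of 31, of which 30 were tested. Of these, edgeR called 1 higher and 1 lower, beside 3.91% and 5.04% of all genes, and DESeq2 also called Rock1 and Pde5a higher. The median log2 fold change was 0.15, and 18 of the 30 were above 0. In 11 each Ocln-KO library lay above each WT library and in 2 each lay below, beside 16.9% and 19.4% of all genes. At an unadjusted p under 0.05 there were 11 of the 30, beside 29.1% of all genes. Ryr2, a calcium release channel of the store, had 4.49, 5.16 and 5.06 CPM in WT against 9.48, 7 and 9.47 in Ocln-KO (log2 fold change 0.82, SE 0.19, edgeR adjusted p = 0.04). Stim1, the sensor that opens calcium entry when the store empties, had 132, 124 and 156 CPM in WT against 86.9, 81.9 and 56.1 in Ocln-KO (log2 fold change -0.87, SE 0.17, adjusted p = 0.0286). Neither gene overlapped between genotypes. The list of non-muscle counterparts of the contractile genes also holds Flnc, a filamin of muscle. Of its genes, 0 of 18 tested passed edgeR's adjusted threshold, and the median log2 fold change was 0.03. At an unadjusted p under 0.05 there were 7, beside 29.1% of all genes. In 5 each Ocln-KO library lay above each WT library and in 2 each lay below, beside 16.9% and 19.4% of all genes. DESeq2 called Myh9, Myh10, Flnc and Vim, and limma-voom called Myh9, all higher. The edgeR log2 fold changes of those 4 were 0.40, 0.49, 0.39 and 0.63. Of the 18 tested, 10 were above 0 and 8 below. Actb, the most abundant gene of the list, had 1520, 1520 and 1690 CPM in WT against 1480, 1630 and 1600 in Ocln-KO (log2 fold change -0.01, edgeR adjusted p = 0.966).

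Other cell types share some of these genes, and their markers were summed in each library. Pericyte markers, 8 genes, summed to 361 to 415 CPM in WT against 365 to 383 in Ocln-KO, with Kcnj8 lower (log2 fold change -1.03, edgeR adjusted p = 0.042), 0 higher, and Notch3, the most abundant, at -0.26, while 4 of the 8, led by Cspg4 at 0.36, were above 0 and the median was 0.07. Endothelial markers, 9 genes, summed to 157 to 184 CPM in WT against 140 to 162 in Ocln-KO, with Egfl7 lower (-1.01, edgeR adjusted p = 0.0127) and 0 higher. The median was 0.22, 6 of the 9 were above 0, and without Egfl7 the sums were 112 to 130 CPM in WT against 120 to 134 in Ocln-KO. Fibroblast markers, 8 genes, had 0 called by edgeR, DESeq2 or limma-voom, 2 at an unadjusted p under 0.05, and summed to 2530 to 2770 CPM in WT against 2000 to 5500 in Ocln-KO. Of the 8, 7 were above 0, with a median of 0.34, beside 82.4% and 0.27 for the smooth muscle genes. In 3 of the 8 each Ocln-KO library lay above each WT library, beside 16.9% of all genes. The most abundant fibroblast gene, Col1a1, had 424, 708 and 1490 CPM in the Ocln-KO libraries against 735 to 905 CPM in WT. Macrophage markers, 8 genes, summed to 175 to 187 CPM in WT against 180 to 290 in Ocln-KO, with Mertk, the most abundant, at -0.08, the other 7 at 0.47 to 1.17 and a median of 0.58. Of these edgeR called 0, with 6 at an unadjusted p under 0.05, limma-voom 0 and DESeq2 4, all higher. Adipocyte markers, 6 genes, had 0 called by edgeR, DESeq2 or limma-voom, 2 at an unadjusted p under 0.05, and summed to 20.4 to 23.2 CPM in WT against 11.3 to 21.8 in Ocln-KO, mostly from Lipe at 0.06. The other 5 were at -2.25 to -1.16, and summed to 5.51 to 9.65 CPM in WT against 0.0592 to 3.65 in Ocln-KO.

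Epithelial markers, 10 genes, summed to 3860 to 3950 CPM in WT against 2720 to 3140 in Ocln-KO, without overlap, with Prom1 lower (-0.71, edgeR adjusted p = 0.0314) and Krt19 higher (0.79, adjusted p = 0.0336). Without Prom1, the other 9 summed to 1750 to 1990 CPM in WT against 1490 to 1960 in Ocln-KO, with overlap. Striated muscle markers, of which 10 of 18 were tested, were sparse, at 29.9 to 38.6 CPM in WT against 34.4 to 54.3 in Ocln-KO. Among them Acta1 (mean CPM of 0.921 in WT and 3.62 in Ocln-KO, log2 fold change 1.97, edgeR adjusted p = 0.0379) and Tnnt2 (means of 10.6 and 20.8 CPM, log2 fold change 0.97, adjusted p = 0.0466) were higher and Myh1 was lower (-3.90, adjusted p = 0.0275), while Myh4 and Myh7 were too low to test. Proximal epididymal markers summed to 99.5 to 270 CPM in WT against 296 to 10200 in Ocln-KO, where Gpx5 made up most of the sum. The other tested markers of that list, Lcn8, Cst8 and Lcn12, had log2 fold changes of 0.04, -0.13 and 0.36, and edgeR called none of them. Of 7 posterior Hox genes only Hoxa10 was high enough to test. The part of these cell types, of Ocln-KO replicates 2 and 3 and of the region sampled in the smooth muscle result was not tested. The 7 called genes had log2 fold changes of 0.45 to 1.16 without Ocln-KO replicate 3, where all but Synpo2 were still called. Without Ocln-KO replicate 2, the other library with high Gpx5, their log2 fold changes were 0.49 to 1.26 and 0 of them were called.

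**Figure D5:**
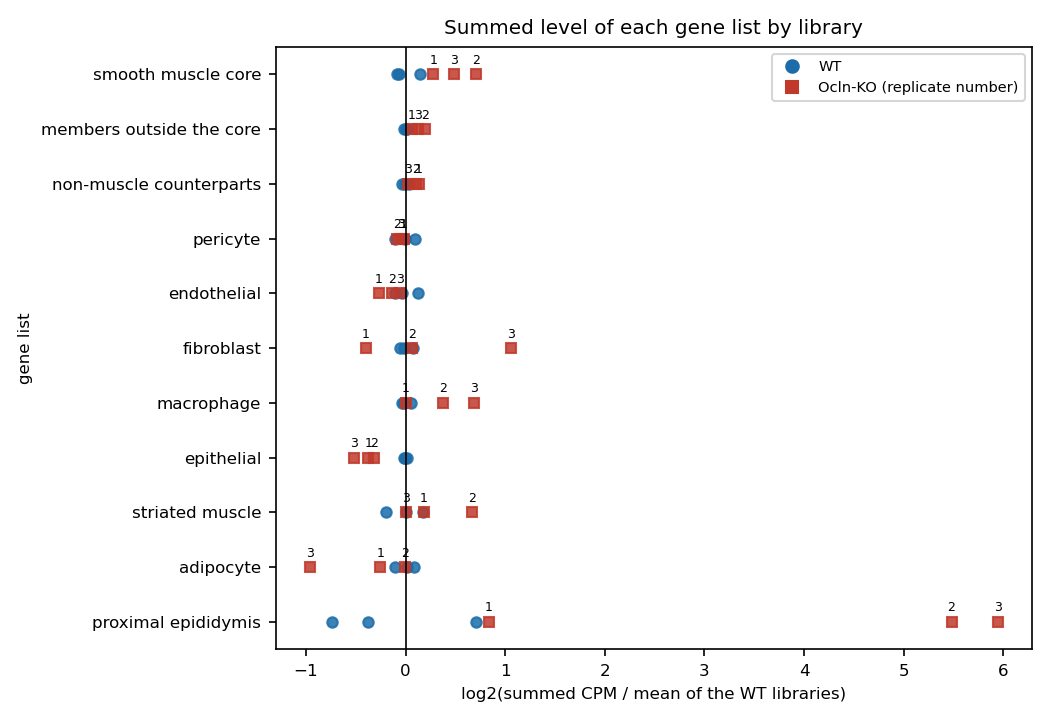
Points give the log2 ratio of the summed CPM of each marker list in a library to the WT mean of that list, with the smooth muscle genes beside the other lists and Ocln-KO libraries numbered by replicate. The smooth muscle core lies above WT in all 3 Ocln-KO libraries with Myh11 in it (it was not summed without Myh11). The epithelial list lies below WT in all 3 with Prom1 in it (without Prom1 the genotypes overlap), and the fibroblast list spreads to both sides.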

How the data were processed

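Total RNA of whole epididymis was depleted of rRNA, made into directional libraries and sequenced as paired ends. The authors aligned cleaned reads to GRCm38 with HISAT2 (2.0.4 in the submitters' processing notes) and counted them per gene with HTSeq; the deposited values are raw counts, and the strand setting and the treatment of multiply mapped reads are not given in the sources used here. Columns were matched to samples by name, with 0 unmatched.

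Genes were kept by filterByExpr, scaled by TMM and tested with edgeR 4.0.16 (glmQLFit and glmQLFTest, R 4.3.3), p-values being adjusted by the Benjamini-Hochberg method across all tested genes. CPM use the TMM-scaled library sizes. DESeq2 1.42.0, limma-voom (limma 3.58.1), other scalings and filters, a replicate block and leaving out each library were the alternatives. On simulated data with 200 genes changed by a fold of 2, edgeR recovered 64.5% with 9 false calls among 19324 genes. On the same data limma-voom recovered 63.5% with 8 false calls. DESeq2 recovered 84% with 56 false calls among 19691 genes. The simulated counts were drawn with edgeR's own dispersions and a single fold, so they cannot grade the genes that DESeq2 alone called. Those genes did not pass the main test. Exon lengths and overlaps come from GENCODE vM21 and coordinates from RefSeq (GRCm38.p6).

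The members and lists were chosen with earlier results of these data known. All 34 members are named, with Ocln, and from each other list the 2 called genes of largest change with at least 1 CPM and the most abundant gene. Further genes of those lists are named where they qualify a result. RPKM values, proteomes and lipids were not analysed here.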

Additional observations from a re-analysis of the deposited data

How the results depend on the processing

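The number of smooth muscle genes called higher was 7 with RLE size factors, without a count filter and with at least 10 counts in every library, 8 with total counts only (adding Lmod1), 10 with DESeq2 (adding Cnn1, Lmod1 and Tagln) and 6 with limma-voom (without Actg2), and ran from 0 to 10 when single libraries were left out, while the calls over all genes ran from 4 to 782 higher and from 19 to 944 lower; 2 (Ldb3 and Actg2) passed a fold of 2 as well, and 0 were called lower in any of the 13 alternatives. Over all genes, total counts only gave 1175 higher and 674 lower beside 770 and 992, and moved the median of all genes to 0.09 and that of the members to 0.35. DESeq2 called 1528 higher and 1637 lower. The median log2 fold change of the members lay between 0.22 and 0.38 without single libraries, and that of Ocln between -2.56 and -2.44.

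With a replicate block, 0 members were called (12 at an unadjusted p under 0.05), as were 10 genes higher and 31 lower over all. The deviations of same-numbered libraries correlated at -0.05, -0.03 and 0, and those of libraries with unlike numbers at -0.08 to 0.13. That shows no pairing by number, but with 3 libraries per genotype it cannot exclude one, and the methods speak of pairs of mice. Of 442 gene-by-alternative values, 17 in 6 members changed sign, none past the threshold. With total counts Synm was at 0.041, Kcnma1 at 0.015 and Hspb6 at 0.057; Hspb7 was at -0.042 with limma-voom, -0.001 without a filter and -0.042 with the replicate block. Without single libraries Synm ranged from -0.125 to 0.119, Itga8 from -0.292 to 0.008, Pdlim7 from -0.049 to 0.152, Kcnma1 from -0.268 to 0.023, Hspb6 from -0.253 to 0.11 and Hspb7 from -0.196 to 0.252. The causes were not tested.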
